A study of Mus musculus with 6 samples.

Results

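The miR-15 family of the mouse was followed through 5 of its members, mmu-miR-15a-5p, mmu-miR-15b-5p, mmu-miR-16-5p, mmu-miR-195a-5p and mmu-miR-497a-5p (written below without the species prefix). They were taken by name from the 1881 miRNAs on the array and cover 10 of its 4415 probes. All 5 were bright enough to be tested, among 388 miRNAs that were. The material was tumour tissue from C57BL/6 mice carrying Hepa1-6, a mouse hepatoma cell line injected into the right flank. Of the 6 mice, 3 received GLE, an abbreviation not explained in the sources used here, in a daily amount of 0.023 g for each 10 g of body weight. The remaining 3 mice, the model group, received 0.9% saline, 0.2 ml per mouse each day for 28 days. Both groups carried the same tumour line and had an age label of 28 d, and each tumour gave 1 array of Cy3-labelled total RNA.

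MicroRNAs bind messenger RNAs mainly through the seed, the stretch from base 2 to base 8, and lower the amount of protein made from them. The miR-15 family is known as a brake on the cell cycle and on survival, since its targets include cyclins D and E, the kinase CDK6 and the anti-apoptotic protein BCL2. In the mouse the members come from 3 pairs of hairpins, each made as a shared primary transcript. The miR-15a and miR-16-1 pair lies in the long non-coding gene Dleu2, the counterpart of a region that is often deleted in human chronic lymphocytic leukaemia. The miR-15b and miR-16-2 pair lies in Smc4, which encodes a condensin subunit needed to pack chromosomes for division, and the miR-497a and miR-195a pair stands apart from protein-coding hosts. The mature miR-16-5p is identical from both of its hairpins, so an array cannot tell which locus made it.

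The mature sequences are shown because the members are alike at the end that chooses targets and differ at the end the array probes read. They are written 5′ to 3′ from RefSeq (GRCm38.p6), with the seed in capitals.
miR-15a-5p: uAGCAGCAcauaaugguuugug
miR-16-5p: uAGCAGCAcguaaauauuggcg
miR-15b-5p: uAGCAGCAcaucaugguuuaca
miR-195a-5p: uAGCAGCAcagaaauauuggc
miR-497a-5p: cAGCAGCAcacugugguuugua
miR-322-5p: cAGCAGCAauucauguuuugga
miR-503-5p: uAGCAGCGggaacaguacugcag
All 5 members carried the seed AGCAGCA, as did 5 of the other entries in the RefSeq table of 1679 named mature miRNAs. Of those 5, miR-322-5p is shown because it was the one detected in these tumours. miR-503-5p, its neighbour on chromosome X, has a seed that differs in its last base and was included as a relative.

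In GRCm38.p6 the mature miR-15a-5p lies at chr14:61632075-61632096 on the minus strand, 117 bases from the miR-16-5p of the same locus at chr14:61631936-61631957. The other locus holds miR-15b-5p at chr3:69009775-69009796 and its miR-16-5p at chr3:69009918-69009939, both on the plus strand and 121 bases apart. On the plus strand of chromosome 11, miR-497a-5p (chr11:70234730-70234751) and miR-195a-5p (chr11:70235062-70235082) are separated by 310 bases. Beyond the seed the members fall into sequence pairs that do not follow the loci. Compared base for base from the 5′ end, miR-16-5p and miR-195a-5p, from different chromosomes, differ at 2 of 21 bases, whereas miR-195a-5p and its neighbour miR-497a-5p differ at 9 of 21. miR-15a-5p and miR-15b-5p differ at 4 of 22.

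Each member had 2 probes of different length, each complementary to the miRNA from its 3′ end inward. The longer probe of the closest pair is shown, since the reading of miR-195a-5p rests on telling it from miR-16-5p, with the letters that pair with the seed in capitals.
miR-16-5p probe: cgccaatatttacgTGCT
miR-195a-5p probe: gccaatatttctgTGCTGC
The miR-195a-5p probe would meet miR-16-5p with 2 mismatches over 19 bases, and the miR-16-5p probe would meet miR-195a-5p with 2 as well. For every other combination of members the count was at least 4. How much signal crosses over was not tested. All spots of the 10 member probes were well above background on all 6 arrays, with 13 to 15 spots per probe and array and a spot-to-spot coefficient of variation between 1.30% and 7.62% (median 2.85%). The 2 probes of a member gave differences between groups that were 0.0028 to 0.064 log2 units apart.

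Levels below are log2 of the processed signal divided by the array's 75th percentile over the 636 probes detected on every array, a quantity that compares arrays and not different miRNAs with each other. That percentile ran from 203 to 364 intensity units over the 6 arrays, and 378 to 458 miRNAs were detected per array. The 6 arrays sat on 1 slide and were read in 1 scan per the file headers, but the GLE arrays filled one row of positions and the model arrays the other, so position and treatment cannot be told apart. Arrays with the same replicate number shared a column of positions on the slide. Where 3 values are given for a group, they are replicates 1, 2 and 3 in that order. Differences are GLE minus model ± SE from limma's fit to all 388 miRNAs, with 3 tumours per group. No member passed the threshold of 0.05 after Benjamini-Hochberg adjustment, and over all tested miRNAs 0 passed, or 0%, with 6 (1.55%) at an unadjusted p under 0.05 in limma's test. On average the miR-497a and miR-195a pair, miR-15a-5p and miR-16-5p lay higher in GLE tumours and miR-15b-5p slightly lower, each with a limma 95% interval that includes 0.

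Of the 5 members, 4 had a difference above 0, against 198 of all 388 tested miRNAs (51.0%), and the median difference was 0.36 against 0.0078. The members were picked with results of these arrays known, so this count describes them and is no test. In 1 of 5 members, miR-16-5p, the GLE tumours all lay above the model tumours, which 18 of 388 miRNAs (4.64%) did. Counting either direction, 26 miRNAs (6.70%) had groups that did not overlap.

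**Figure D1:**
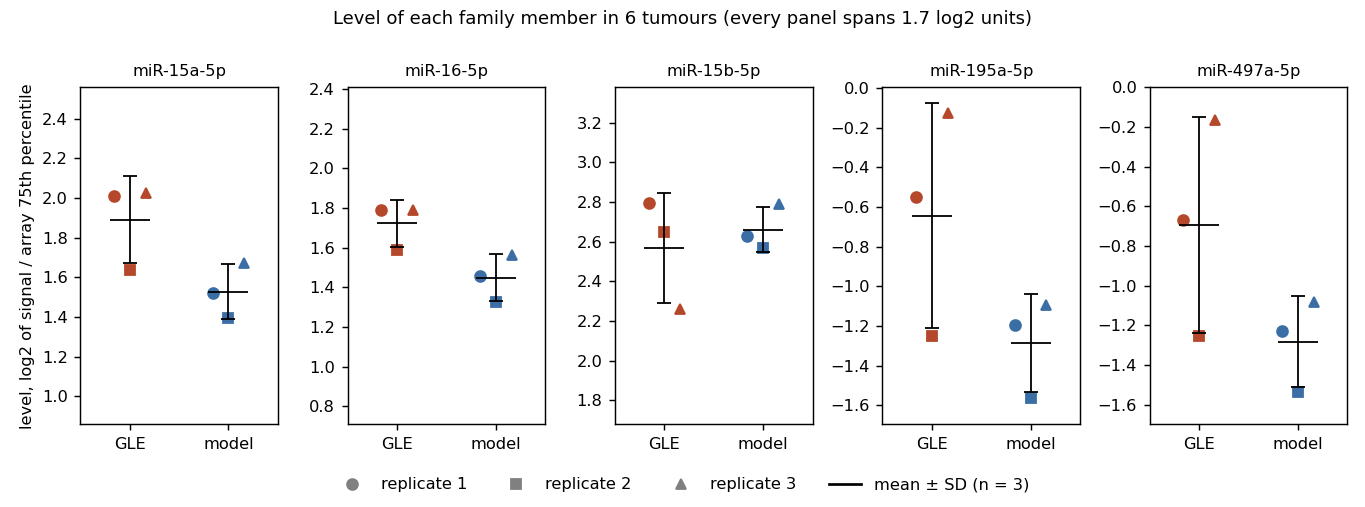
Level of each member in the 6 tumours (y axis, log2 of signal over the array's 75th percentile), by group (x axis), with a symbol per replicate and the mean ± SD of 3 tumours as a black bar. GLE replicate 2 is the lowest GLE tumour for every member except miR-15b-5p, where GLE replicate 3 is lowest at 2.26, and the 3 GLE values of miR-16-5p (1.59 to 1.79) lie above the 3 model values (1.33 to 1.56).

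At the Dleu2 locus, miR-15a-5p stood at 2.01, 1.64 and 2.02 among GLE tumours, the model tumours giving 1.52, 1.39 and 1.67. GLE replicates 1 and 3 were nearly equal and above every model tumour, and GLE replicate 2 was just below model replicate 3, so the groups overlapped by that pair of tumours alone. The difference was 0.36 ± 0.18, a 1.29-fold higher mean with a 95% interval of 0.951 to 1.74 (limma unadjusted p = 0.0893, adjusted p = 0.937).

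miR-16-5p, which counts the output of both hairpin copies, stood at 1.79, 1.59 and 1.79 under GLE and at 1.46, 1.33 and 1.56 under saline. Its groups did not overlap, though the gap between GLE replicate 2 and model replicate 3 was narrow beside the SD of 0.12 within each group. The difference of 0.28 ± 0.16 corresponded to 1.21-fold, with an interval from 0.927 to 1.58 (limma unadjusted p = 0.134, adjusted p = 0.937). In the authors' deposited table of processed values the difference was 0.18. With both groups pooled, miR-16-5p followed miR-15a-5p closely over the 6 tumours. Pearson's r was 0.99 (exact permutation p = 0.00417, adjusted p = 0.0139 over 10 member pairs). Spearman's rho was 0.94 (exact permutation p = 0.0167, adjusted p = 0.0417). Without GLE replicates 1 and 3, the tumours farthest from the median of miR-15a-5p, r was 0.98.

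At the Smc4 locus, miR-15b-5p read 2.80, 2.65 and 2.26 under GLE, and 2.63, 2.57 and 2.79 under saline. The highest and the lowest of the 6 values were both GLE tumours, with the model tumours in between. The difference was −0.092 ± 0.20 (0.938-fold, interval 0.681 to 1.29, limma adjusted p = 0.951). It was 0.058 without GLE replicate 3, the tumour in which miR-15b-5p was lowest and miR-195a-5p highest, so its sign rested on that tumour. The relation of miR-15b-5p to miR-16-5p, with which it shares a primary transcript, did not pass the test over the 6 tumours (Pearson r = −0.16, exact permutation p = 0.778, adjusted p = 0.778; Spearman rho = 0.086, exact permutation p = 0.919, adjusted p = 0.919). That value too depended on the extremes: r was 0.73 over the other 4 tumours when GLE replicates 1 and 3, the farthest from the median of miR-15b-5p, were left out.

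The chromosome 11 pair had the largest differences of the family. miR-195a-5p, known to rise as heart muscle cells leave the cell cycle after birth, read −0.55, −1.25 and −0.13 under GLE, and −1.19, −1.57 and −1.09 under saline. miR-497a-5p stood at −0.67, −1.25 and −0.16 in the GLE tumours and at −1.23, −1.53 and −1.08 in the model tumours. For both, GLE replicates 1 and 3 were above every model tumour and GLE replicate 2 lay inside the model range.

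The difference was 0.64 ± 0.31 for miR-195a-5p (1.56-fold, interval 0.945 to 2.58, limma unadjusted p = 0.0742, adjusted p = 0.937), the 15th highest of the 388 miRNAs. For miR-497a-5p it was 0.59 ± 0.30 (1.502-fold, interval 0.925 to 2.44, limma unadjusted p = 0.0875, adjusted p = 0.937), the 22nd highest. The spread among GLE tumours, an SD of 0.57 and 0.54, was more than that of the model tumours at 0.25 and 0.23. With normexp, another background correction, run here with an offset of 50 added to the signals, the differences were 0.42 and 0.38. Such an offset shrinks the log differences of low signals more than those of high ones. Without GLE replicate 3 the differences were 0.38 and 0.32, and without GLE replicate 2 they were 0.95 and 0.87 (limma adjusted p = 0.0791 and 0.0816). That last omission was not particular to this pair. It gave 109 of 399 tested miRNAs an unadjusted p under 0.05 (limma), with a smallest adjusted p of 0.0621.

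miR-195a-5p and miR-497a-5p ran together more tightly than any other pair of members, although their sequences differ at 9 of the 21 bases compared. Their order over the 6 tumours was identical (Spearman rho = 1.00, exact permutation p = 0.00278, adjusted p = 0.0278; Pearson r = 0.997, exact permutation p = 0.00139, adjusted p = 0.0139), and r was 0.99 without GLE replicates 1 and 3. Between the loci, miR-15a-5p also ran with miR-195a-5p (Pearson r = 0.95, exact permutation p = 0.00556, adjusted p = 0.0139), with a Spearman rho of 0.94 (exact permutation p = 0.0167, adjusted p = 0.0417). Leaving out GLE replicates 1 and 3 gave r = 0.87. For miR-16-5p and miR-195a-5p, the pair with the closest sequences, Pearson's r passed the adjusted threshold (0.92, exact permutation p = 0.0153, adjusted p = 0.0306) and Spearman's rho did not (0.83, exact permutation p = 0.0583, adjusted p = 0.0972). The same split held for miR-16-5p and miR-497a-5p (r = 0.90, exact permutation p = 0.0208, adjusted p = 0.0347; rho = 0.83, exact permutation p = 0.0583, adjusted p = 0.0972). Without GLE replicate 3 and model replicate 2, the farthest from the median of miR-16-5p, r was 0.89 with miR-195a-5p and 0.90 with miR-497a-5p. miR-15a-5p with miR-497a-5p passed by both measures (r = 0.94, exact permutation p = 0.00278, adjusted p = 0.0139; rho = 0.94, exact permutation p = 0.0167, adjusted p = 0.0417), with r = 0.90 when GLE replicates 1 and 3 were left out. The relations of miR-15b-5p to miR-15a-5p, miR-195a-5p and miR-497a-5p did not pass (r = −0.21, −0.44 and −0.49, exact permutation adjusted p = 0.778, 0.507 and 0.488; rho = 0.14, 0.086 and 0.086, adjusted p = 0.919 for each). Without GLE replicates 1 and 3 those r were 0.85, 0.83 and 0.89. The values of all members come from the same 6 arrays and share each array's scaling. The permutations ignored group, so a difference between groups that 2 members share adds to their relation. Relations within a group were not tested. How often pairs among all tested miRNAs reach such r was not counted, and some miRNAs outside the family came as close, as given below.

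**Figure D2:**
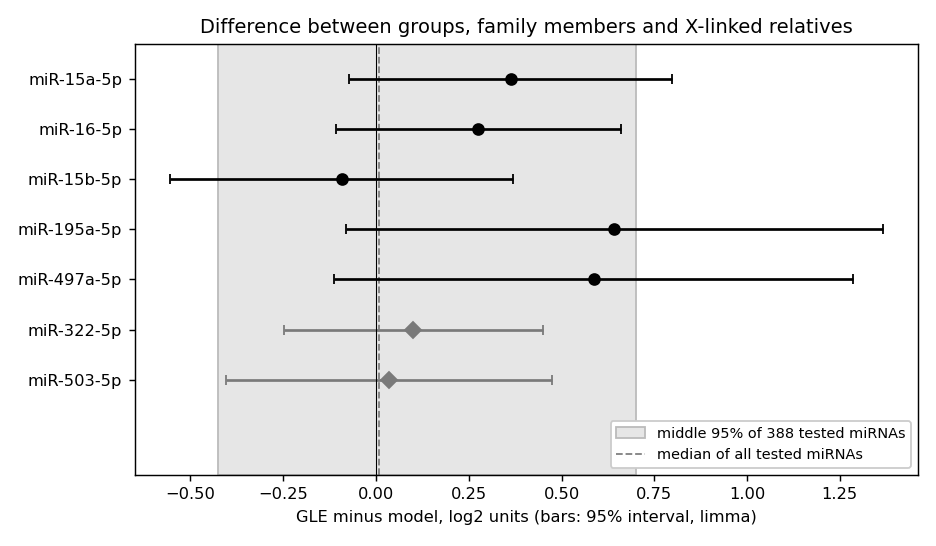
Difference between groups (x axis, GLE minus model in log2 units) for the 5 members (circles) and 2 X-linked relatives (diamonds), with limma's 95% intervals. The grey band is the middle 95% of the 388 tested miRNAs (−0.43 to 0.70) and the dashed line their median (0.0078). Every interval includes 0, and miR-15b-5p is the one member on the lower side.

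Whether the loci differed from each other in their response was asked with differences between 2 members taken within each array, where array scaling cancels. Averaged over its 2 members, the difference between groups was 0.32 for the Dleu2 locus, 0.092 for the Smc4 locus and 0.61 for the chromosome 11 locus, with miR-16-5p counted at both Dleu2 and Smc4. The pairs therefore used members that come from 1 locus each. With the scaling used here, miR-15a-5p minus miR-15b-5p was the one of 4 such pairs without overlap between the groups. It was −0.79, −1.01 and −0.24 under GLE, against −1.11, −1.17 and −1.12 under saline. The 3 model tumours were almost equal (SD 0.036) and all GLE tumours lay above them, GLE replicate 2 by the least. The groups' means differed by 0.46, a 1.37-fold ratio (two-sided exact permutation p = 0.1, the smallest value that 3 against 3 tumours allow, adjusted p = 0.3 over the 4 pairs). Without GLE replicate 3 that difference was 0.23. In the authors' deposited table of processed values it was 0.36 and the groups overlapped (exact permutation p = 0.2).

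miR-195a-5p minus miR-15b-5p had a GLE mean of −3.21 ± 0.77 and a model mean of −3.95 ± 0.16, 0.73 apart (SD, n = 3, exact permutation p = 0.3, adjusted p = 0.3). Without GLE replicate 3 the difference was 0.32. GLE replicate 2, at −3.90, lay within the model range of −4.13 to −3.82. Under quantile normalisation the difference of this pair was 0.71 and the groups did not overlap (exact permutation p = 0.1). miR-195a-5p minus miR-15a-5p was 0.28 higher under GLE (exact permutation p = 0.3, adjusted p = 0.3), with GLE values of −2.56, −2.89 and −2.15 against −2.71, −2.96 and −2.77 in the model tumours. The groups overlapped for miR-195a-5p minus miR-15a-5p too. Its difference was 0.073 under normexp background correction, 0.087 without GLE replicate 3 and 0.46 without GLE replicate 2. A larger response of the chromosome 11 locus than of miR-15a-5p was thus not resolved. Within the chromosome 11 locus, miR-497a-5p minus miR-195a-5p stayed between −0.12 and 0.030 in all 6 tumours (difference −0.055, exact permutation p = 0.2, adjusted p = 0.3).

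**Figure D3:**
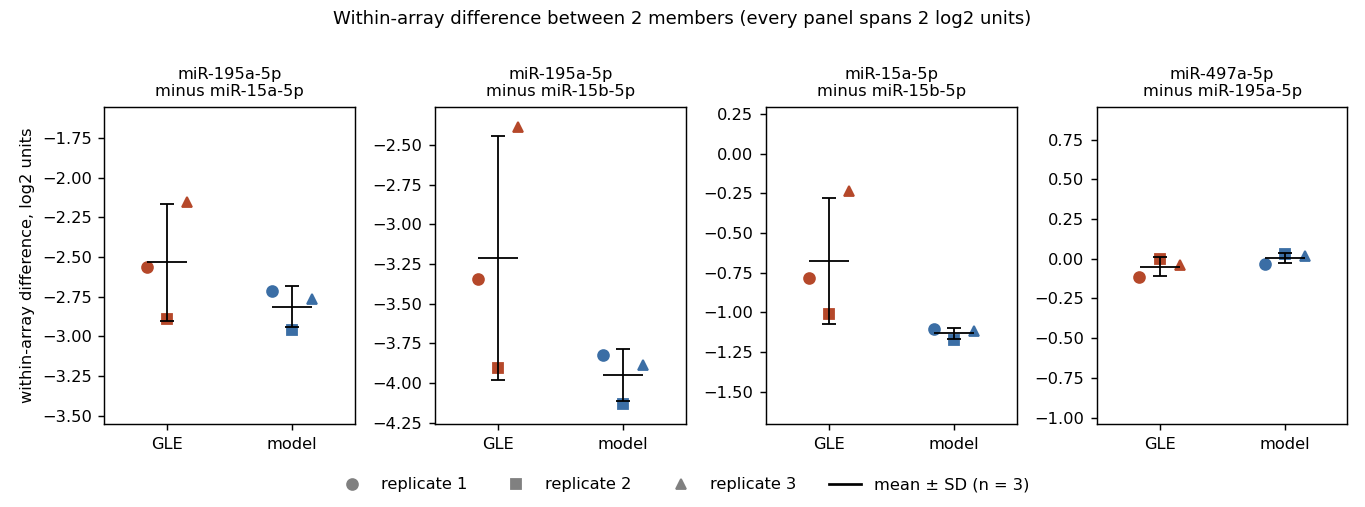
Within-array difference between 2 members (y axis, log2 units) by group (x axis), with a symbol per replicate and the mean ± SD of 3 tumours as a black bar. The miR-15a-5p minus miR-15b-5p panel shows the 3 model tumours at −1.17 to −1.11 and the GLE tumours above them, and the miR-497a-5p minus miR-195a-5p panel is flat.

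Set against the total signal of those 636 probes, miR-15a-5p held a share of 0.388% ± 0.047 under GLE and 0.308% ± 0.016 under saline (SD, n = 3). For miR-16-5p the shares were 0.402% ± 0.021 and 0.341% ± 0.019, and for miR-15b-5p 0.682% ± 0.12 and 0.733% ± 0.027. miR-195a-5p held 0.082% ± 0.029 and 0.051% ± 0.0065, and miR-497a-5p 0.080% ± 0.029 and 0.052% ± 0.0063. All 5 together made up 1.63% ± 0.098 of that signal in GLE tumours and 1.48% ± 0.073 in model tumours. A share of array signal depends on how brightly each probe hybridises and is not a share of molecules.

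Most other relatives were not detected. miR-322-5p, the mouse counterpart of human miR-424, read −0.37, −0.40 and −0.32 under GLE, and −0.43, −0.47 and −0.48 under saline. Its groups did not overlap either, but the difference was 0.10 ± 0.15 (limma adjusted p = 0.946), with the smallest spread of any family entry tested. Its neighbour miR-503-5p differed by 0.035 ± 0.19 (limma adjusted p = 0.973) and was dim, between −3.25 and −2.79. miR-195b, miR-497b, miR-1907, miR-6342, miR-6353, miR-6419, miR-322-3p and miR-503-3p were detected on 0 arrays. miR-195b, miR-6342, miR-6353 and miR-6419 carry the family seed, and miR-497b comes from the strand opposite the miR-497a hairpin.

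The other arms of the members' own hairpins, which are usually discarded when the duplex is loaded into Argonaute, were below detection on most arrays. miR-15a-3p, miR-15b-3p, miR-16-1-3p, miR-16-2-3p and miR-497a-3p were detected on 0 of 6 arrays, and miR-195a-3p on 1 GLE and 1 model array. None could be tested, so the 2 sources of miR-16-5p could not be told apart through miR-16-1-3p and miR-16-2-3p either.

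The chromosome 11 pair stood high in the tumours where the summed miRNAs of immune cells and of fibroblasts and smooth muscle did. This was not particular to that pair, since miR-15a-5p and miR-16-5p were also highest in GLE replicates 3 and 1. The 7 immune cell miRNAs listed all had a positive difference, 0 passed the adjusted threshold in limma's test, and their summed level (linear, in units of the array's 75th percentile) was 11.02, 5.73 and 16.1 under GLE against 5.12, 4.72 and 7.38 under saline. GLE replicate 3 was highest, followed by GLE replicate 1 and model replicate 3, as for miR-195a-5p, and model replicate 2 was lowest for both, while GLE replicate 2 and model replicate 1 stood in the opposite order. The order of the immune cell sum was that of miR-15a-5p in all 6 tumours. For miR-16-5p it differed only in that GLE replicate 2 stood above model replicate 3. In bulk tumour RNA, more cells of a type and more RNA per cell cannot be told apart. For the fibroblast and smooth muscle miRNAs, 5 of 6 had a positive difference and 0 passed the adjusted threshold in limma's test, with sums of 2.94, 1.62 and 5.22 under GLE against 1.74, 1.42 and 2.26 under saline. The exception was the smooth muscle miRNA miR-145a-5p (difference −0.026), where model replicate 2 stood just below GLE replicate 3 and model replicate 3 was lowest. miR-199a-3p was the brightest of the 6 in every tumour and weighed most in the sums. The order of these sums was that of miR-195a-5p in all 6 tumours. None of these 13 markers was undetected, and their part in the values of miR-195a-5p, miR-497a-5p, miR-15a-5p and miR-16-5p was not tested. How many of all tested miRNAs share these orders was not counted, so the matches do not set the members apart.

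miR-15b-5p stood high and low in the same tumours as the red cell miRNAs. miR-451a and miR-486a-5p, the 2 of 5 listed erythrocyte miRNAs bright enough to test, both had negative differences (limma adjusted p = 0.951 and 0.946), and their sum was 10.67, 5.34 and 2.90 under GLE against 5.57, 4.18 and 12.2 under saline. GLE replicate 1 and model replicate 3 were the 2 highest tumours and GLE replicate 3 the lowest, as for miR-15b-5p. miR-144-3p and miR-144-5p were each detected on 2 GLE and 2 model arrays. The part of red cells in the miR-15b-5p values was not tested, and how many other miRNAs have a like order was not counted.

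**Figure D4:**
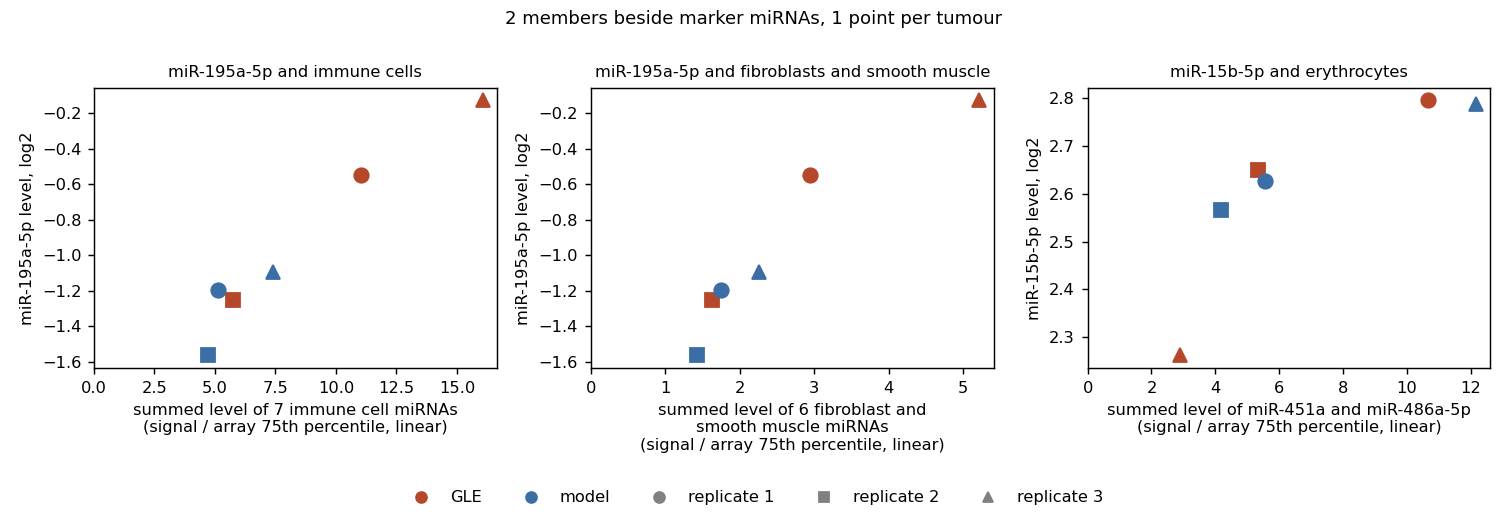
Level of miR-195a-5p (y axis, log2) against the summed level of 7 immune cell miRNAs (left) and of 6 fibroblast and smooth muscle miRNAs (middle), and level of miR-15b-5p against the sum of miR-451a and miR-486a-5p (right), with sums on linear x axes, 1 point per tumour, colours for groups and shapes for replicates. GLE replicate 3 is the highest point on the left (x = 16.1) and in the middle (x = 5.22) and the lowest on the right (x = 2.90).

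Muscle and liver markers had other orders over the tumours. The skeletal muscle sum was 4.45, 1.30 and 1.32 under GLE, then 0.807, 2.00 and 1.77 under saline, high in GLE replicate 1 alone. The hepatocyte sum, without miR-122-5p and miR-802-5p, was highest in GLE replicate 2 at 2.61, against 0.811 and 0.551 in GLE replicates 1 and 3 and 0.709 to 1.22 in model tumours. In these hepatoma tumours miR-122-5p, which defines mature hepatocytes, passed detection in 1 tumour of each group, and miR-802-5p in 0. Of the 2 endothelial miRNAs, miR-126a-3p was bright enough to test, and all GLE tumours lay above all model tumours (difference 0.49 ± 0.19, limma adjusted p = 0.937).

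By likeness over the 6 tumours, given as Pearson's r and as a description, the 3 tested miRNAs outside the family nearest to miR-195a-5p were miR-140-3p (0.998), miR-185-5p (0.996) and miR-652-3p (0.994). Nearest to miR-497a-5p were miR-652-3p (0.996), miR-155-5p (0.996) and miR-199a-3p (0.993), the last 2 of them on the immune and fibroblast lists. miR-15a-5p was most like miR-222-3p (0.99), miR-21a-5p (0.99) and miR-378a-3p (0.98). miR-16-5p was most like miR-21a-5p (0.98), miR-7a-5p (0.97) and miR-222-3p (0.96). miR-15b-5p was most like miR-202-3p (0.96), miR-5122 (0.94) and miR-677-3p (0.94), none of which is among the 3 nearest to another member. miR-140-3p was nearer to miR-195a-5p (0.998) than its neighbour miR-497a-5p was (0.997). Likewise, miR-222-3p was nearer to miR-15a-5p (0.990) than miR-16-5p was (0.987). For miR-497a-5p, its neighbour miR-195a-5p was nearer than any miRNA outside the family. For miR-16-5p this held for its Dleu2 partner miR-15a-5p, but not for its Smc4 partner miR-15b-5p (−0.16).

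**Figure D5:**
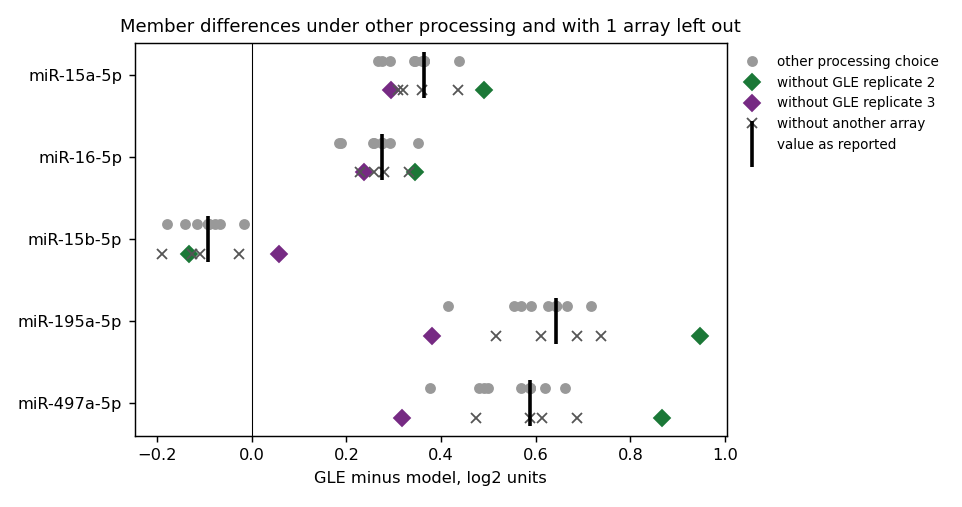
Difference between groups (x axis, log2 units) for each member as reported (black bar), under 11 other processing choices (grey circles) and with each array left out in turn (crosses and diamonds). The values of 4 members stay above 0 throughout, from 0.18 for miR-16-5p to 0.95 for miR-195a-5p, and miR-15b-5p crosses 0 without GLE replicate 3.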

How the data were processed

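Each of 6 tumours, 3 per group and each from a separate mouse per the labels, was hybridised to a 1-colour Agilent miRNA array. The deposited scanner files hold intensity on a linear scale, made with Agilent Feature Extraction (10.7.1.1), which subtracted background and a spatial trend per the file headers and did not normalise between arrays. The authors' deposited table of processed values is on a log2 scale by its range, with 1 value per miRNA and array; its making is not stated there, and it served as an alternative. Processed signals were analysed with limma 3.58.1 (R 4.3.3). Controls and outlier spots (1401 to 1883 of 56430 per array) were left out, 0 spots were saturated, and spots were averaged per probe. A probe was detected when more than 0.5 of its spots were well above background. Arrays were divided by their 75th percentile across the 636 probes seen on each of them, floored at −4.26 (log2) and logged. A miRNA's value averages those of its probes that every array of 1 or both groups detected. This left 388 of 1881 miRNAs; 1383 were detected on no array. limma's lmFit and eBayes compared the groups (two-sided tests, 4 degrees of freedom left plus 3.05 from the prior, Benjamini-Hochberg over all 388). Pairs of members were compared with exact permutation over 20 relabelings (smallest p 0.1). Relations were tested over 720 pairings of the tumours, without regard to group. Precision is limited by the 6 arrays, with a median 95% interval of ± 0.54 log2 units.

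The miRNAs named are the 5 members, the other arms of their hairpins, a list of 10 relatives written by hand (both arms of miR-322 and miR-503, miR-195b, miR-497b, miR-1907, miR-6342, miR-6353 and miR-6419, of which 5 share the seed), and the 3 miRNAs most like each member. Cell type markers were listed by hand from general knowledge. Members and lists were chosen with earlier results of these data known. miR-486b-5p had no entry under that name on the array. Mature sequences were taken from RefSeq (GRCm38.p6), and the probes of all 5 members were complementary to them without mismatch. Host and neighbour genes come from the same assembly, since the deposited probe positions are on mm9. Replicate numbers were not taken as pairs of tumours, and a fit with them as a block is given with the alternatives.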

Additional observations from a re-analysis of the deposited data

How the results depend on the processing

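Over 17 alternatives (11 processing choices and 6 omissions of 1 array), 0 miRNAs were called by limma in any of them, and the differences of miR-15a-5p (0.27 to 0.49), miR-16-5p (0.18 to 0.35), miR-195a-5p (0.38 to 0.95) and miR-497a-5p (0.32 to 0.87) stayed positive. miR-15b-5p ran from −0.19 to 0.058 with an array left out, positive without GLE replicate 3, and was negative in the other 16. Limma's adjusted p for miR-195a-5p ran from 0.0791 to 0.999. The within-array shifts kept their signs: 0.23 to 0.62 for miR-15a-5p minus miR-15b-5p, 0.32 to 1.08 for miR-195a-5p minus miR-15b-5p, 0.073 to 0.46 for miR-195a-5p minus miR-15a-5p and −0.11 to −0.022 for miR-497a-5p minus miR-195a-5p. No scaling moved the median of all miRNAs by over 0.1. Omitting an array gave 0 to 109 miRNAs at an unadjusted p under 0.05 (limma). The highest count, of 399 tested, came without GLE replicate 2, against 6 of 388 with every array. Same-numbered tumours deviated from their group means with correlations of −0.62, −0.18 and 0.37 for numbers 1, 2 and 3, and the numbers were not taken as pairs. Differently numbered tumours were not compared, so these values cannot show that pairing was absent. Same-numbered arrays shared a column of positions on the slide, so replicate number and column cannot be told apart. With the replicate number as a block the differences were the same by construction (0.64 for miR-195a-5p, adjusted p = 0.896 in limma) and 0 miRNAs were called. In that fit 17 of 388 miRNAs had an unadjusted p under 0.05 (limma), among them miR-195a-5p (0.0308) and miR-497a-5p (0.0416). The smallest limma adjusted p over all of them was 0.896, so this count does not set the members apart. A block for slide or scan was not run, since all arrays shared 1 of each. With 3 arrays per group the adjusted tests leave changes of the sizes seen here unresolved.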
